A study of Homo sapiens with 6 samples.

Results

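The ubiquitin system genes described here are those whose names mark them as activating enzymes (UBA and a digit), conjugating enzymes (UBE2), ligases or ligase subunits (UBE3, CUL, RNF, TRIM, FBXO, FBXL and FBXW) or ubiquitin peptidases (USP and OTUD). They were found by gene name in a list of 7772 AGO2 HITS-CLIP peaks, stretches of RNA crosslinked by ultraviolet light to AGO2, the Argonaute protein loaded with microRNAs. The rule took 156 peaks of 97 genes. The cells were 22RV1, an established human prostate cancer line, transfected with a miR-194 mimic at 20 nM (3 libraries) or with a negative control at 20 nM (3 libraries), and crosslinked 24 h later. The table gives 1 score per peak for the merged list and no value per library or group, so no contrast of the mimic with the control was possible, sequencing depth is unknown, and no value below has a replicate. The score is the authors' own, a whole number from 5 to 1270 whose scale is unknown here, and it serves below to rank peaks within this list.

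The name rule also took names that are neither enzymes nor substrate receptors of the pathway. Among them, USP6NL encodes a GTPase-activating protein, and OTUD6B-AS1 and RNF139-AS1 are antisense RNAs. These 3 had 1 peak each, none with a miR-194 site. CUL4B, USP7, UBE2K and UBA1, the markers given for the set, all had peaks. Of genes of prostate luminal cells, FOXA1 and STEAP2 had peaks while KLK3, KRT8 and KRT18 had none, and of 6 genes of blood, vessel, stromal or basal cells none had one. Absence of a peak says nothing of whether a gene was expressed.

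Ubiquitin is activated by an E1 enzyme, passed to an E2 conjugating enzyme and attached to a substrate with the help of an E3 ligase. RING ligases bring the E2 to the substrate, and cullins are the scaffolds of multi-subunit RING ligases whose substrates are chosen by receptors such as F-box proteins. Deubiquitinating peptidases, most of them of the USP family, remove ubiquitin again. A microRNA guides AGO2 to messenger RNAs mainly through its seed, the bases near its 5′ end.

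The sequences shown are miR-194-5p and the 7mer matches of member peaks scoring 46 or more, with the lowest matched CUL4B peak and 2 lower USP peaks for comparison. The mature microRNA, from RefSeq (GRCh38.p14), is shown first with its seed (bases 2 to 8) in capitals. Each site is then shown in 30 bases of the coding strand of its transcript, from GENCODE 29 transcripts matched by RefSeq accession, with the match to the seed in capitals. An 8mer is CTGTTACA, a 7mer-m8 is CTGTTAC, a 7mer-A1 is TGTTACA, and a 6mer is TGTTAC. The first 3 of these, on the peak's own strand, are called 7mer matches, and a variant is a listed site that lacks the 6mer.
miR-194-5p: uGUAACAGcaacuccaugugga
CUL4B, peak scoring 250: taggtgatgttCTGTTACActgaaagggat
CUL4B, peak scoring 62: ccaattgtagatTGTTACAggcttcctagg
CUL4B, peak scoring 19: tgttttgtaaatTGTTACAggagcaaaaac
TRIM36, peak scoring 205: tttaatggaaatCTGTTACtcaggctggta
TRIM23, peak scoring 86: aaaaggtcatgCTGTTACAggtgtagtttg
UBE2K, peak scoring 85: gtcccatttgttCTGTTACtgcttcattgg
RNF4, first site of the peak scoring 106: caactctttcttTGTTACAtttaaactata
RNF4, second site of the same peak: ctcctctgctagTGTTACAgatggaaataa
RNF20, peak scoring 70: agaaggagcatCTGTTACAgagcaacattg
FBXW2, peak scoring 62: tgataacatttCTGTTACAtttctttctct
USP54, peak scoring 54: agttggaatgatCTGTTACtatggcaaaca
CUL5, peak scoring 46: acgccaggaatCTGTTACAaaacagcagtg
The sites of CUL4B, TRIM36, TRIM23, UBE2K and RNF4 are in 3′ UTRs of these transcripts, and those of RNF20, FBXW2, USP54 and CUL5 are in coding sequence. Next come the sites in coding exons of 4 USP peptidase genes, shown because their bases are nearly the same.
USP7, peak scoring 203: cagggagcgactTGTTACAtgaacagcctg
USP14, peak scoring 120: cttggtaacactTGTTACAtgaatgccaca
USP33, peak scoring 44: attggaaatactTGTTACAtgaatgcagct
USP9X, peak scoring 26: gccggtgctactTGTTACAtgaattctgtg

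A 7mer match was listed in 26 of the 156 member peaks (16.7%, exact 95% interval 11.2 to 23.5%), against 13.4% of all 7772 peaks. By gene, 23 of 97 member genes had a match in at least 1 peak (23.7%, 15.7 to 33.4%), against 23.6% of all 3659 named genes. The shares are close, and both intervals include the share over the whole table. Intervals here and below are Clopper-Pearson intervals that cover counting error alone. The 26 matched peaks comprised 13 with an 8mer, 3 with a 7mer-m8 and 10 with a 7mer-A1 as their best site. The 8mer share of matched peaks was 50.0% among members (26 peaks) and 31.1% over all peaks (1038 matched peaks). No interval was computed for this share, and the difference was not tested. Another 5 member peaks held a 6mer, 3 held a variant and 122 had no listed site on their own strand.

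**Figure D1:**
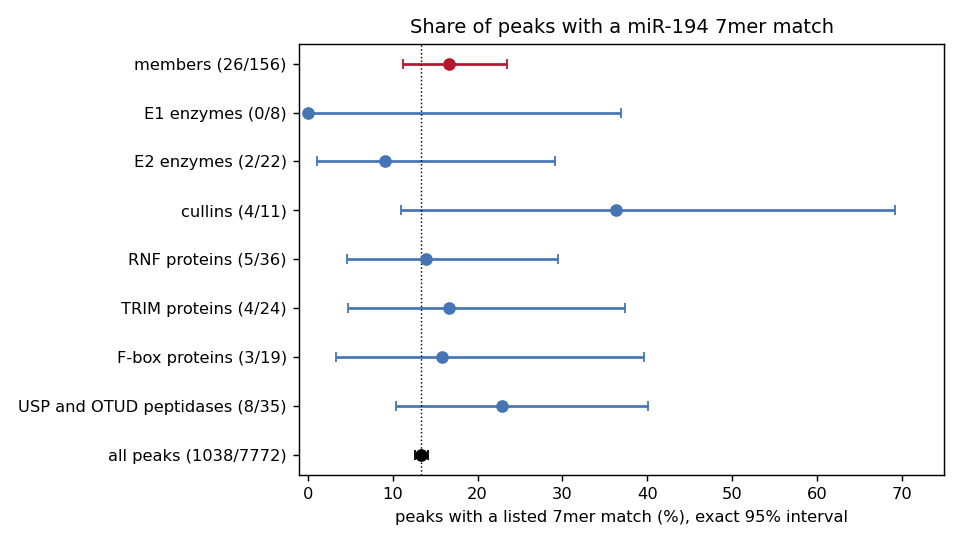
Share of peaks with a listed miR-194 7mer match (horizontal axis, percent, with exact 95% intervals) for the member peaks, for their families and for all 7772 peaks (dotted line at 13.4%); counts stand beside each name, and the single UBE3 peak is left out. The USP and OTUD row includes USP6NL and OTUD6B-AS1. The intervals of all families shown include the share over all peaks; the highest share is that of the cullins, 4 of 11 peaks, of which 3 belong to CUL4B.

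Member peaks lay in coding exons most often. Coding exons held 62 of the 156 (39.7%, against 36.1% of the 7117 peaks with a gene name), 3′ UTRs held 41 (26.3%, against 25.2%) and introns held 34 (21.8%, against 21.7%). The rest were 8 peaks at transcript ends, 5 at promoters and transcription starts, 4 in non-coding transcripts and 2 in a 5′ UTR. The split by part of the gene was thus close to that of named peaks in general. By family, all 6 CUL4B peaks were in the 3′ UTR, 17 of the 33 peptidase peaks (USP6NL and OTUD6B-AS1 left out) were in coding exons, and 13 of the 36 RNF peaks and 8 of the 22 E2 peaks were in introns.

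**Figure D2:**
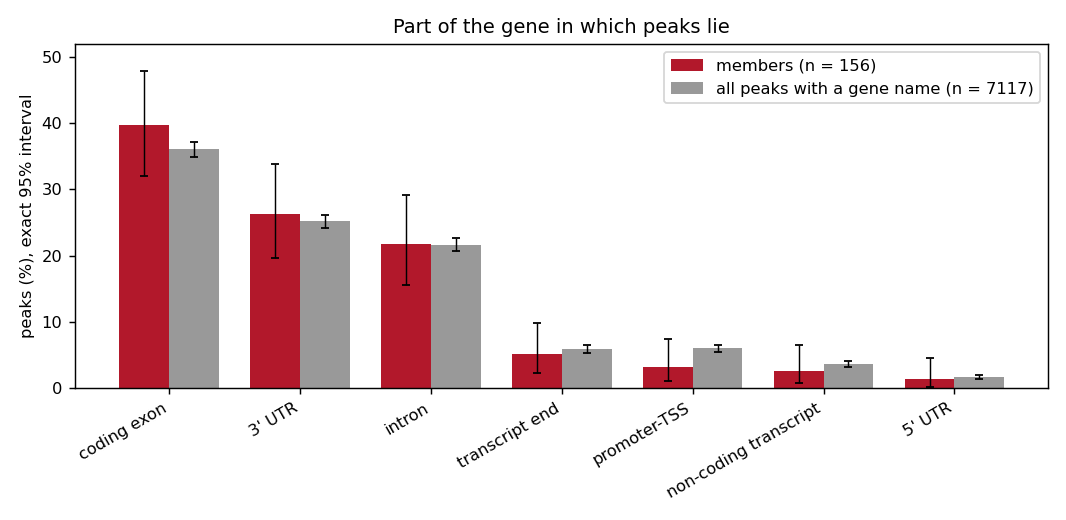
Percent of peaks (vertical axis, with exact 95% intervals) in each part of the gene for the 156 member peaks and for all 7117 peaks with a gene name. Member bars lie within a few percentage points of the bars for named peaks, with coding exons highest in both.

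Within coding exons a 7mer match was listed in 13 of 62 member peaks (21.0%, 11.7 to 33.2%), against 15.0% of all coding exon peaks. Within 3′ UTRs it was listed in 11 of 41 (26.8%, 14.2 to 42.9%), against 19.8% of all 3′ UTR peaks. In introns 1 of 34 peaks held a match (2.94%), against 4.61% of all intron peaks, and at transcript ends 1 of 8, against 20.4%. Sites in 3′ UTRs were listed with 10 bases and those in other parts with 9, so shares in different parts were not compared with each other. Of the 13 matched coding exon peaks 7 held an 8mer, in CUL5, FBXW2, RNF10, RNF20, TRIM33, UBE2O and USP32. The peptidase genes USP7, USP14, USP33, USP53 and USP9X held 7mer-A1 sites there, and USP54 a 7mer-m8.

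Scores of member peaks had a median of 14 (interquartile range 12 to 22), against 15 (12 to 23) over all peaks. The highest, 250 in CUL4B, ranked 80th of the whole list. At scores of 23 or more there were 38 member peaks (24.4%, against 26.5% of all peaks). Of these 38, 15 held a 7mer match (39.5%), against 32.2% of the 2056 such peaks in the table. Of the 54 member peaks scoring 12 or less, 3 held one (5.56%), against 4.05% in the table.

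**Figure D3:**
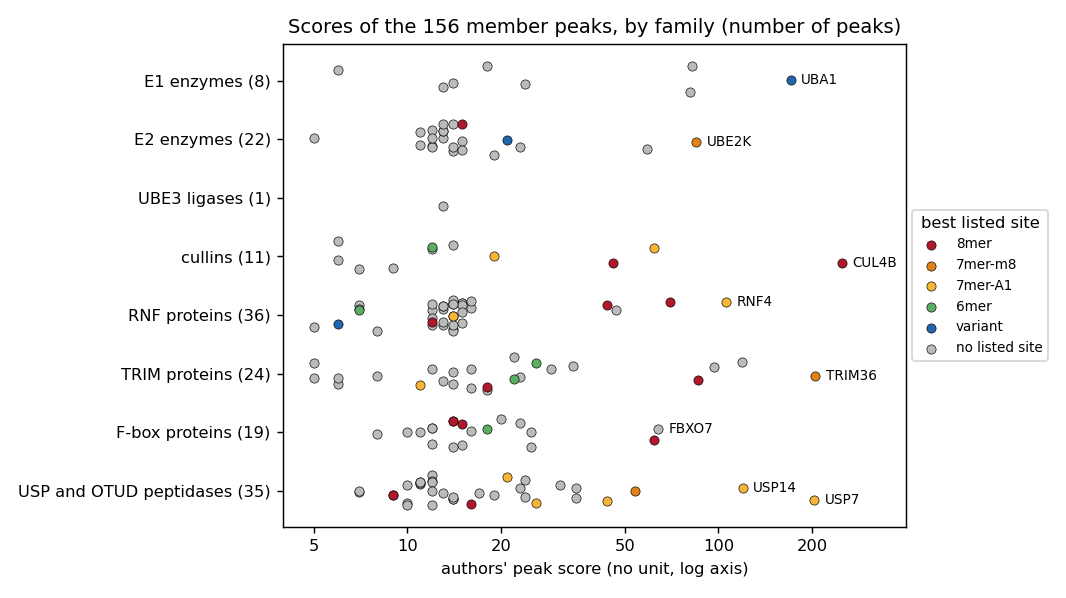
Authors' peak score (horizontal log axis, no unit) of each of the 156 member peaks by family, coloured by the best site listed on the peak's own strand; vertical scatter within a row is for display. Matched peaks lie mostly to the right, with CUL4B at 250, TRIM36 at 205 and USP7 at 203, while UBA1 at 171 has a variant site.

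Matched member peaks had the higher median score. It was 44 (interquartile range 15.2 to 81.2, 26 peaks) with a 7mer match and 13.5 (12 to 16, 122 peaks) with no listed site, against 31 and 14 over all peaks. In coding exons the member medians were 44 with a match and 14 without a site, against 34.5 and 15 over all coding exon peaks. In 3′ UTRs they were 19 (interquartile range 14 to 85.5) and 12.5, against 38.5 (20 to 71) and 15 over all 3′ UTR peaks. There the matched member median lay below that of the table, but it rests on 11 peaks. Of these, 3 were in CUL4B and scored 250, 62 and 19, none below the member median of 19. Over all parts of the gene, the median length of member peaks was 97.5 nt with a match and 60.5 nt without a site. Among member peaks above 67 nt, the median length in the table, the median scores were 45 for the 22 matched peaks and 14 for those without a site. At 67 nt or less they were 16.5 for 4 matched peaks and 12 for those without a site. The part of length in the difference was not tested further. Among member peaks the 13 with an 8mer had a median of 18 (9 to 250), the 3 with a 7mer-m8 a median of 85 (54 to 205) and the 10 with a 7mer-A1 a median of 35 (11 to 203). Over all peaks these medians were 30, 32 and 30.5.

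In 15 member genes some peaks had a 7mer match and others did not. The highest matched peak exceeded the highest other peak in 12 of them (80.0%, against 75.1% of 550 such genes in the table). The median ratio between both was 2.2 in member genes and 1.95 over all such genes. The ratio was largest in CUL4B, with 250 against 9, in RNF4, with 106 against 7, and in FBXW2, with 62 against 10. It went the other way in OTUD7B (9 against 14), UBE2O (15 against 21) and RNF144B (12 against 14). Peaks of 1 gene are not independent, and no test was made.

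**Figure D4:**
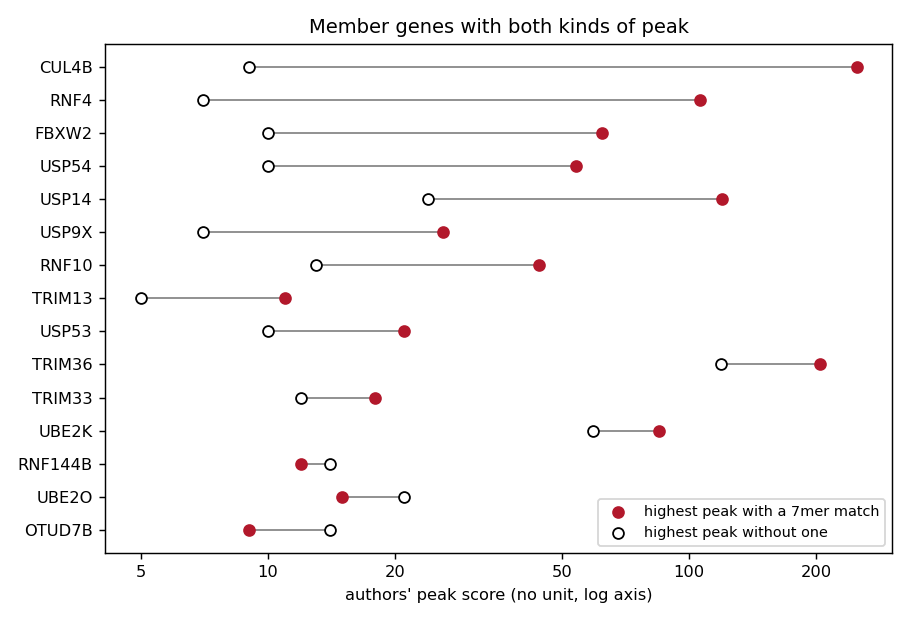
Highest peak with a 7mer match (filled) and highest peak without one (open) in each of the 15 member genes that have both, on a log axis of the authors' score (no unit). The filled point lies to the right in 12 genes and to the left in RNF144B, UBE2O and OTUD7B.

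Among the activating enzymes, UBA1, the main E1 of the ubiquitin pathway, had 5 peaks and no 7mer match. Its highest scored 171 and lay in coding exon 14 of 26 on chromosome X, 47062966 to 47063095 (hg19, plus strand), with the variant site atcgttaca. A run of 3 UBA1 peaks covered 47060676 to 47060945 with gaps of 2 and 3 nt. In transcript order they scored 18 in exon 7, 82 in intron 7 and 81 in exon 8, and none held a site. This intron peak was the highest of the 34 intron peaks of member genes. The fifth UBA1 peak scored 13, in exon 20. UBA6, the alternative E1, had 1 coding exon peak scoring 24.

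The conjugating enzymes had 22 peaks in 13 genes, with a median score of 13.5 and 2 matched peaks. UBE2K, an E2 that builds lysine-48-linked chains, had the highest. Its 3′ UTR peak with a 7mer-m8 scored 85 (chromosome 4, 39783679 to 39783745, plus strand), and the peak 2 nt upstream of it, without a site, scored 59. A pair of UBE2K intron peaks scored 23 and 13. UBE2O, a large E2 that also acts as a ligase, had an 8mer in the last of its 18 exons (score 15) and a variant site, aaagttaca, in exon 7 (score 21). UBE2H had 3 peaks, scoring 19 and 5 in the 5′ UTR and 13 in an intron. The other 10 E2 genes had no site and scored at most 15. They include UBE2J2, UBE2V1, UBE2Z, UBE2S, UBE2E3, UBE2Q1, UBE2L3, UBE2J1 and UBE2R2. UBE3C, the ligase of the UBE3 group that had a peak, scored 13 in an intron.

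CUL4B, the scaffold of ligases that use DDB1 to hold their substrate receptors, stood highest of all member genes. Its 6 peaks lay between 119659455 and 119660232 on chromosome X (minus strand), in exon 20 of 20. In transcript order they scored 6, 250, 19, 62, 6 and 9. The peak scoring 250 held an 8mer, those scoring 19 and 62 held 7mer-A1 sites, and the other 3 held none. Each of the peaks scoring 6 lay 4 nt from a matched peak, the first from that scoring 250 and the other from that scoring 62. In the matched GENCODE transcript the 3 listed stretches, of 10 bases each, begin 541, 858 and 956 nt past the stop codon, and the 3′ UTR of 2152 nt holds no further 7mer. CUL5, the scaffold that works with SOCS-box receptors, had 1 peak, scoring 46, with an 8mer in coding exon 2 of 19 (chromosome 11, 107904535 to 107904637). Its listed bases begin 100 nt into the coding sequence. CUL3, which works with BTB-domain receptors, had a coding 6mer peak scoring 12. CUL7 had 2 coding peaks (14 and 7) and CUL9 had 1 (12), without sites.

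**Figure D5:**
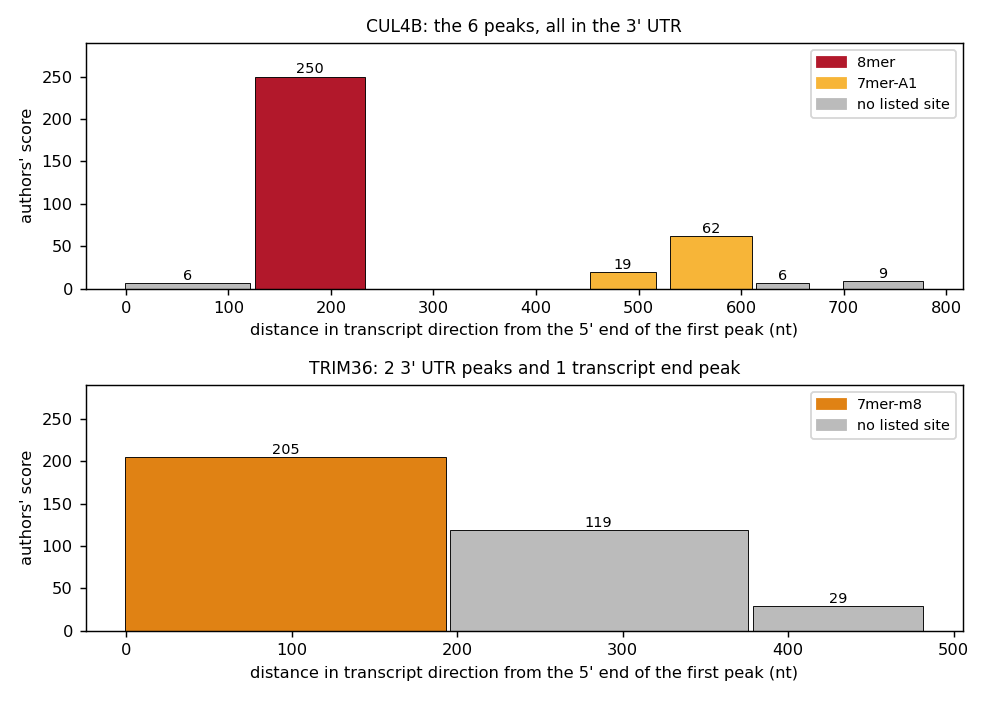
Peaks of CUL4B (top) and TRIM36 (bottom), as bars of true width along the transcript direction (nt from the 5′ end of the first peak) with the authors' score as height, coloured by listed site. In CUL4B the 3 peaks with a site score 250, 19 and 62 and the others 6 to 9; in TRIM36 a 7mer-m8 peak of 205 is followed by peaks of 119 and 29 without a site.

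Among RING proteins of the TRIM family, TRIM36 had the highest peak. It had 3 adjoining peaks on the minus strand of chromosome 5, from 114460472 to 114460953, with gaps of 2 and 3 nt. In transcript order they scored 205, 119 and 29, and the first held a 7mer-m8. TRIM28, a co-repressor that works with zinc finger proteins, scored 97 in coding exon 12 of 17 without a site, beside a small peak scoring 6. TRIM23, a ligase that carries a GTPase domain, had a 3′ UTR 8mer peak scoring 86 (chromosome 5, 64885995 to 64886154, minus strand). TRIM33, a ligase of the SMAD pathway, had a coding 8mer at the very start of a peak scoring 18, and its other coding peaks scored 12 and 6. TRIM13, a ligase of the endoplasmic reticulum, had a 7mer-A1 in a 3′ UTR peak scoring 11 and a small peak scoring 5 beside it, which held a reverse-complement 7mer. The 6mer peaks of TRIM37 and TRIM4 scored 26 and 22. The other 7 TRIM genes, TRIM35, TRIM3, TRIM65, TRIM11, TRIM56, TRIM62 and TRIM32, had no site and scored at most 34.

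The RNF genes had the most peaks, 36 in 25 genes, with a median score of 14 and 5 matched peaks. RNF4, which ubiquitinates proteins that carry SUMO chains, had the highest. That peak scored 106 and was classed at a transcript end (chromosome 4, 2517475 to 2517568, plus strand). It held a pair of 7mer-A1 sites, whose listed bases begin 15 and 70 bases from its 5′ end. The 3′ UTR of the matched GENCODE transcript, 2106 nt long, holds no other 7mer, and these begin 2015 and 2070 nt past the stop codon, counted from the first listed base. The other RNF4 peak, with a 6mer, scored 7. RNF20, which ubiquitinates histone H2B, scored 70 with an 8mer in coding exon 17 of 20, while RNF40, its partner, had peaks scoring 15 and 13 without a site. RNF10 scored 44 with an 8mer in coding exon 5 of 17, and its other peaks scored 13 each. RNF139, a ligase of the endoplasmic reticulum membrane, scored 47 in a coding exon without a site. Low matched peaks were the 3′ UTR peak of RNF125 (14, 7mer-A1), a ligase of the RIG-I pathway, and an intron peak of RNF144B (12, 8mer), whose other intron peaks scored 14 without a site and 6 with a variant. The remaining 17 protein-coding RNF genes had no site and scored at most 16. They were RNF31, the catalytic subunit of the linear chain ligase, RNF2 of the Polycomb complex, RNF43, which removes WNT receptors, and RNF11, RNF24, RNF34, RNF41, RNF103, RNF111, RNF121, RNF123, RNF126, RNF157, RNF185, RNF187, RNF215 and RNF220.

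F-box genes had 19 peaks in 15 genes, and the 3 matched ones all held an 8mer and belonged to FBXW2 and FBXW7. FBXW2 had an 8mer in coding exon 3 of 8 (score 62; chromosome 9, 123550460 to 123550549, minus strand) and another in its 3′ UTR (score 14). Its listed bases in the coding exon begin 40 nt into the coding sequence. FBXW7, the receptor that marks MYC and cyclin E for destruction, scored 15 with its 8mer in the 3′ UTR. FBXO7, an F-box protein mutated in a form of parkinsonism, had the highest F-box peak, 64 in coding exon 3 of 9, without a site. FBXL20 had a coding 6mer peak scoring 18. The other 11 genes (FBXL6, FBXL16, FBXL18, FBXL19, FBXO10, FBXO24, FBXO33, FBXO42, FBXO46, FBXW5 and FBXW8) had no site and scored at most 25.

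The USP and OTUD peptidases, without USP6NL and OTUD6B-AS1, had 33 peaks, 8 of them matched (24.2%, 11.1 to 42.3%, against 13.4% of all peaks). These lay in 8 of 19 genes (42.1%, 20.3 to 66.5%, against 23.6% of all named genes), and both intervals include the share over the table. USP7, which deubiquitinates p53 and MDM2, had a single peak, scoring 203, in coding exon 6 of 31 (chromosome 16, 9012889 to 9012996, minus strand). USP14, a peptidase bound to the proteasome, scored 120 in coding exon 5 of 16 (chromosome 18, 180237 to 180388, plus strand). Its other peaks scored 24, 11 and 9 without sites. USP33 scored 44 in exon 8 of 25, and USP9X scored 26 in exon 31 of 45, with a peak scoring 7 beside it. USP9X has a close paralog, and whether reads were split between the copies was not tested.

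The 7mer-A1 sites of USP7, USP14, USP33 and USP9X lie at the same place of a shared coding motif. All 4 windows hold TGTTACATGAA, read in frame. As background, these bases belong to the conserved stretch around the catalytic cysteine of USP enzymes. Of 19560 protein-coding genes in the GENCODE basic set, 6 hold TGTTACATGAA in frame on the coding strand (0.0307%), and all 6 are USP genes, of 78 searched. They are the 4 named above, USP29 and a paralog of USP9X. The table names no peak for these last 2. The other 4 are among the 6, and have a peak at these bases, by construction, since the motif is the stretch their 4 windows share. The looser motif TGNTANNTGAA, which contains the first, occurs in frame in 37 of the 78 USP genes and in 149 genes in all (0.762%). Of these 37, 21 are USP17L genes, a multi-copy group. USP36, which has the looser motif but not the first, had 1 peak, a 3′ UTR peak scoring 14. In it N stands for any base. Both motifs were chosen after these sites were seen, so the counts of genes that hold them are a description and not a test. Across the table the 9 listed bases (cttgttaca) occur in 16 coding exon peaks of 15 genes, so they are not particular to USP genes.

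Other matched peptidase sites lay elsewhere in their genes. USP54 scored 54 with a 7mer-m8 in coding exon 8 of 22 and 10 in its 3′ UTR. USP53 scored 21 with a 7mer-A1 in coding exon 10 of 18 and 10 in an intron. USP32 scored 16 with an 8mer in exon 33 of 34. OTUD7B, a peptidase that favours lysine-11-linked chains, had 5 peaks scoring 9 to 14, and its 8mer lay in the lowest of them, in the 3′ UTR. Without a site, USP34 and USP5 scored 35 each and USP13 scored 31, all in coding exons. USP42 had 4 peaks scoring 11 to 24. The other peptidase genes, USP31, USP10, USP36, USP3, USP48, USP43 and OTUD3, had no site and scored at most 19.

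Many 7mers of these transcripts were not listed as sites of a peak. For 67 member genes with a peak in a coding exon, 3′ UTR or transcript end a coding transcript could be matched in GENCODE 29. Their 3′ UTRs hold 36 7mers in 22 genes, and 13 were listed in 3′ UTR or transcript end peaks of 10 genes. Their coding sequences hold 25 7mers in 20 genes, and 13 were listed in coding exon peaks of 13 genes. OTUD3 has 3 in its 3′ UTR with none listed, and RNF24, USP13, USP31 and USP6NL have 2 each with none listed. USP7 has 2 in its coding sequence, 1 of them listed. GENCODE transcripts can differ from those behind the peak table. Whether unlisted 7mers lie inside peaks was not examined, and a 7mer not listed does not show that AGO2 was absent from it. These counts were not made over all genes.

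The place of listed sites within member peaks varied. The 27 own-strand 7mer sites were a median of 14.5 nt from the peak centre (0 to 52 nt), and 16 were within 20 nt. Over all peaks the median was 11 nt for 1064 sites, of which 765 were within 20 nt. In TRIM33 the listed bases begin at the first base of the peak. Other large distances include TRIM36, whose listed bases begin 144 bases into a peak of 194 nt, and TRIM23, where they begin 36 bases into a peak of 160 nt. Reverse-complement 7mers were listed in 1 member peak, that of TRIM13.

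Other genes of the ubiquitin system that the name rule leaves out were described beside the members. Of 81 gene names looked up, some of them synonyms, 36 were in the list. Of these 36 genes, 14 had a 7mer match (38.9%, 23.1 to 56.5%, against 23.6% of all named genes). By peak, 14 of 94 held a match (14.9%, against 13.4%). Among the partners of cullins, DDB1, which binds CUL4 scaffolds, scored 88 in an intron, and CAND1, the cullin exchange factor, scored 87 in a coding exon, both without a site. SKP1, which joins F-box proteins to CUL1, had a coding 7mer-A1 peak scoring 44. SPOP, a CUL3 receptor often mutated in prostate cancer, had a coding 7mer-m8 peak scoring 17.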

How the data were processed

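AGO2 HITS-CLIP libraries of mimic and control cells were made, 3 of each per the labels. Per the submitters' processing notes the tools were MACS2, SAMtools, TopHat2 2.0.9, FastQC and cutadapt 1.8.1, and the build was hg19; no order or settings are given. The deposited table holds 1 whole-number score per peak. Its scale and the pooling of libraries are not given in the sources used here. There were 0 columns of other samples, and depth per library is unknown. Gene names were stripped of leading spaces (7106 names) and matched by pattern. Of 97 member names 96 were RefSeq symbols.

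Listed sites were classed by their bases. Their offset was read from the peak's 5′ end, since 36 of 36 site pairs in minus-strand 3′ UTRs were spaced that way in GENCODE transcripts. No test was made: shares have exact Clopper-Pearson 95% intervals and medians stand beside those of all peaks, members included. GENCODE 29 (GRCh38) gave sequences and gene strands but no coordinate. The site classes were checked on simulated sequences. Named were the 20 genes with the highest peak, all with a 7mer match, all with at least 4 peaks and the 4 markers. Other names complete a family's counts, and values given for genes outside this rule, such as UBA6, UBE2H, CUL3, USP13, FBXL6 and DDB1, were chosen after they were seen. The members, lists and comparisons were chosen with earlier results of these data known. Some genes are counted but not reported by name here. Alternatives covered score, site class, part of the gene, 1 peak per gene, left-out genes and strand. Python 3.11.15, numpy 2.4.6, pandas 2.3.3, scipy 1.17.1 and matplotlib 3.10.9 were used.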

Additional observations from a re-analysis of the deposited data

How the results depend on the processing

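The list has no value per library, so depth and replicate error limit every value, and no replicate could be left out. No paired analysis was possible because the table holds no value per library. Leaving out CUL4B, the names that are no enzyme or receptor, or the 7 peaks on the strand opposite to their gene (chosen after seeing the data) kept each of the 6 summary values within its 95% interval (from order statistics for a median), or within 1.5 times for the count of genes. So did counting 6mers or 1 peak per gene, for the values these settings bear on. The interval of the matched median of 44 is wide, 16 to 70: that median was 26 with 6mers counted, 19 in 3′ UTR peaks alone and 18 with 8mers alone. With peaks at or above the table's median score the share of matched peaks was 31.3%, that of matched genes 36.5%, the median score 24, and the matched peak was higher in 3 of 4 genes. At scores of 23 or more these were 39.5% (against 32.2% of such peaks in the table), 48.3%, 46.5 and 3 of 3 genes. With 8mers alone the shares were 8.33% of peaks (against 4.16% of all peaks) and 12.4% of genes. The matched peak was then higher in 4 of 7 genes. In 3′ UTR peaks alone the shares were 26.8% of peaks (against 19.8% over the table) and 34.6% of genes (against 35.4%). The matched peak was higher there in 4 of 5 genes. For the other shares and the gene counts of these settings no value over the whole table is given here. Over the whole table, too, the share of matched peaks was higher at scores of 23 or more (32.2%) than over all peaks (13.4%). These settings keep fewer peaks or sites by construction.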

Other observations

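Of the 156 peaks, 7 lay on the strand opposite to the gene whose name they carry, by GENCODE gene strands. They scored 11 to 25, and none held a site. The transcript end peaks of USP42 (24 and 11) and FBXL16 (25) and the promoter peaks of FBXL6 (20 and 14), RNF40 (15) and RNF139-AS1 (16) make up this set. Gene strands were read for member genes alone. No share over all named peaks therefore stands beside the count of 7, and whether it is usual is not known here.

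Of the 156 member peaks, 40 lay within 10 nt of another peak of the same gene and strand, in 21 pairs. That is 25.6% (19.0 to 33.2%), against 37.1% of all peaks with a gene name. Of the 22 member peaks scoring under 10, 14 were among these 40, such as those beside the high peaks of CUL4B and TRIM28. That is 63.6% (40.7 to 82.8%), against 73.2% of all such peaks with a gene name. Neighbours come in pairs, which these intervals leave out of account. A gene with 1 peak has no such neighbour. Of member genes 60 of 97 had 1 peak, against 2040 of 3659 named genes, and the part of this in the shares was not tested. USP14 also listed a reverse-complement 6mer in its peak of 120, beside its 7mer-A1.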
